A study of Mus musculus with 14 samples.

Results

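Among the regions listed for NKX2.2 in a mouse alpha-cell line, 842 of 6758 lay in gene-poor intergenic DNA. NKX2.2 is a homeodomain transcription factor needed for the formation and identity of several islet cell types, alpha cells among them. KLF4 is a zinc-finger transcription factor. Long stretches without protein-coding genes, often called gene deserts, can hold distal enhancers that act on developmental genes at their borders, and they also hold non-coding genes and repeats. A region was counted here when its midpoint lay outside every protein-coding gene and more than 50 kb from the nearest end of one. It also had to lie on chromosomes 1 to 19 or X, to start at 3500000 bp or later, and to hold fewer than 7 test windows. The last 3 conditions left 6131 compact regions, of which the 842 are 13.7%. None of these conditions used a fold change or a p-value.

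The study used ChIP-seq, in which an antibody pulls down a protein with the DNA it sits on and that DNA is sequenced. The cells were alphaTC6, a glucagon-producing mouse line labelled wild type (WT). Of the 14 samples, all transfected for 48 h, the comparison sets 3 NKX2.2 ChIP samples with an siRNA against Klf4 (Klf4-KD) against 4 with a scrambled control siRNA (scramble). The 4 scramble and 3 Klf4-KD input samples were not analysed here. A single cell line is a limited model of the alpha cell, and the labels do not say how far the siRNA lowered KLF4. The authors' tool, csaw, compares reads between groups in short windows and joins neighbouring windows into regions. The deposited table gives 1 such comparison per region, with csaw's own tally of windows up and down, with no value for any sample, no read count and no statement of which group is the numerator. Up therefore means only a positive, and down a negative, listed log2 fold change. csaw's window tally is narrower than the sign. Of the 2811 windows in the 842 regions, it counted 168 as up and 34 as down. A window left out of the tally need not have the opposite sign. The spread between samples enters only through each region's false discovery rate (FDR), and the design text calls the samples biological replicates without naming their source. The depth is unknown, and enrichment of each region over input was not analysed here.

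The sequence under a region could be read where it overlapped a promoter window of RefSeq, which covers 250 bases before and 50 after a gene's start in GRCm38.p6. Of 812 gene-poor regions on the chromosomes of that promoter table, 11 overlapped such a window (1.35%), and all 11 windows belonged to genes for long non-coding RNA (lncRNA). The shares were 3.06% in compact intergenic regions 1 to 50 kb from a gene end, 6.64% in intragenic regions and 63.5% in regions within 1 kb of a gene end. The distance rule put windows of protein-coding genes out of reach of the gene-poor regions. The order of these shares likewise follows largely from how the places were defined. For 5 of the 11, the region lay wholly inside the window. These 5 are shown because all of their listed bases can be seen. Each is written 5′ to 3′ along its gene, with the bases of the NKX2.2 region in capitals:
1700064M15Rik, chr12:99627925-99628224, minus strand: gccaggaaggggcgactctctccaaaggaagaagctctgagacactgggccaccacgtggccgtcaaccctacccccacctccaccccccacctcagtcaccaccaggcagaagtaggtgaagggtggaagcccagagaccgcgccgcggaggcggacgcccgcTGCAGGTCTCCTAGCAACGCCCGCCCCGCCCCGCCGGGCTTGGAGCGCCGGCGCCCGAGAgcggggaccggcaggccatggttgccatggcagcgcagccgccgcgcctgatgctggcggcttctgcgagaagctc
Gm33070, chr4:110152419-110152718, plus strand: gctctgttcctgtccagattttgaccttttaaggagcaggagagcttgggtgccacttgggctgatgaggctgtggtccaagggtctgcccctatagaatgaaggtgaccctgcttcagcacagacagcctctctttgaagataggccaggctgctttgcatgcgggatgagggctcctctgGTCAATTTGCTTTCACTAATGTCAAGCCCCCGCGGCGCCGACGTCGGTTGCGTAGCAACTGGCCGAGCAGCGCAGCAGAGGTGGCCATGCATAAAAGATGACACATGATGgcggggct
Gm39160, chr8:34472950-34473249, minus strand: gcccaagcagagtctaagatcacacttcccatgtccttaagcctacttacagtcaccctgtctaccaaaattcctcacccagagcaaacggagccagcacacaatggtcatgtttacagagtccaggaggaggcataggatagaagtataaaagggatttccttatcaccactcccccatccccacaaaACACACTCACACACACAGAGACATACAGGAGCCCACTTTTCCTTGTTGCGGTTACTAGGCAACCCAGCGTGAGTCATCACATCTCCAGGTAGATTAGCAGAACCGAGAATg
Gm35358, chr8:89130574-89130873, minus strand: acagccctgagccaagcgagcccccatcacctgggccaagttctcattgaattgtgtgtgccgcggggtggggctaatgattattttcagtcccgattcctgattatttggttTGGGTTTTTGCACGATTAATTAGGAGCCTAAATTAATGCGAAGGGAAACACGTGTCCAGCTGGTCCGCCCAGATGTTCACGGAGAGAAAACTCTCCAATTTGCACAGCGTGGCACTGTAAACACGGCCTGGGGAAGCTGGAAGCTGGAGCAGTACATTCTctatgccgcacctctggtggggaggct
Gm45805, chr8:126758304-126758603, minus strand: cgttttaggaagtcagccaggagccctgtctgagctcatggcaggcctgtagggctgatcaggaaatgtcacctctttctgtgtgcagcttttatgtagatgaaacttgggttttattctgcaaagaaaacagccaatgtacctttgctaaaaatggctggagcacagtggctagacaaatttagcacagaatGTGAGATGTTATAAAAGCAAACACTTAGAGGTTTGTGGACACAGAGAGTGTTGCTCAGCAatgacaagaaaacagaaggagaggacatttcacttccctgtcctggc

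In the authors' deposited table the log2 fold changes of these 5 regions were 0.53 at 1700064M15Rik, -0.06 at Gm33070, -0.01 at Gm39160, -0.01 at Gm35358 and 0.40 at Gm45805. None had an FDR below 0.627. Over all 11 regions on promoter windows, deposited log2 fold changes ran from -0.33 to 0.73, with 6 positive and 5 negative, and the smallest FDR was 0.374. The highest value was at 3930402G23Rik, near Irs2, where the region reached only 7 bases into the window. GC content of the 11 windows ran from 41.7 to 70.7% with a median of 50.3%, against 52.7% over all 32851 promoter windows. The 1700064M15Rik window was at the upper end, with 27 CG dinucleotides, and the Gm45805 window had 1. All 11 windows belong to lncRNA genes, while the median over all promoter windows was not split by gene type.

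Letters of known motif classes were searched on both strands of the 11 windows. The NKX2 letters TNAAGTG were in 0 of 11, in 11.5% of all promoter windows, and in 8.81% of 1521 windows overlapped by other compact regions. The KLF letters CCACCC were in 2 of 11, with no copy under the region itself. They were in 31.5% of all windows and in 32.1% of those under other compact regions. Forkhead letters TGTTTAC were in 3 of 11 (3.65% of all windows and 2.56% of those under other compact regions). Homeodomain letters TAATTA were in 3 of 11 (5.29% and 2.04%, in the same order). In the Gm35358 sequence both lie within the capitals, TAATTA from base 130 and the reverse complement of TGTTTAC from base 230. AP-1 letters TGANTCA were in 2 of 11 (7.81% and 4.87%). CAGATG of basic helix-loop-helix factors was in 6 of 11 (17.2% and 11.1%), and TGCTGA of MAF factors in 3 of 11 (19.5% and 15.2%). The RFX X-box, GTTNC and GNAAC with 3 bases between them, was added after the printed sequences had been seen. It was in 2 of 11, within the capitals of Gm33070 (from base 229) and Gm39160 (from base 240), in 0.971% of all windows and in 2.50% of windows under other compact regions. RFX factors, which include the islet regulator RFX6, bind such paired half-sites. With 11 windows these counts are a description of the letters only. The windows they are set beside were not split by gene type, while all 11 belong to lncRNA genes.

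Gene-poor DNA was thinly populated. Between 3.5 Mb and the last annotated gene of each chromosome, places outside genes and over 50 kb from them made up 35.6% of the bases (911 Mb, unassembled bases included) and held 13.7% of the compact regions. This is 0.924 regions per Mb. The density was 2.09 per Mb in intergenic DNA 1 to 50 kb from a gene end, 2.45 within genes and 21.3 within 1 kb of a gene end. Which parts of each place could be mapped is not known from the table, so densities describe listed regions, not binding per mappable base.

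**Figure D1:**
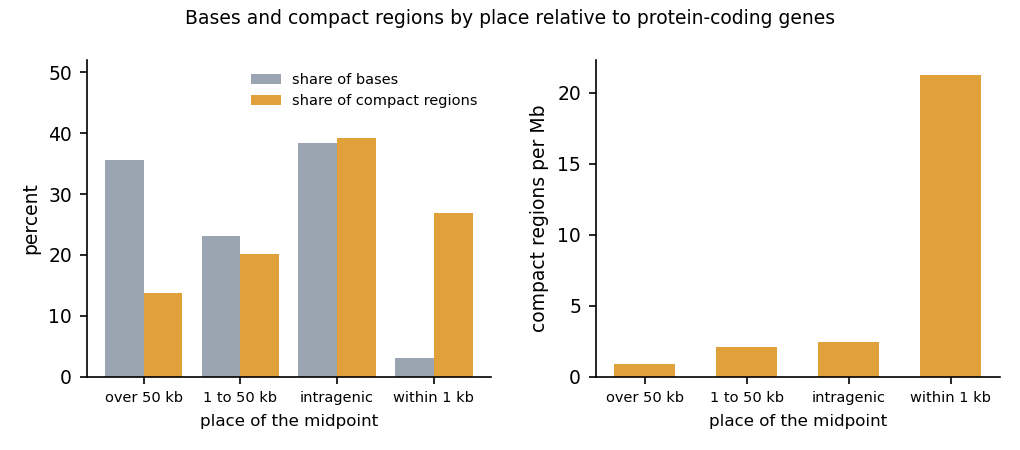
Left, share of bases (grey) and of compact regions (orange), in percent, by place relative to protein-coding genes; right, compact regions per Mb in the same places. Gene-poor DNA over 50 kb from genes holds 35.6% of the bases and 13.7% of the regions, or 0.924 per Mb against 21.3 per Mb within 1 kb of a gene end.

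The 842 regions were spread over all 20 chromosomes examined, from 8 on chromosome 19 to 79 on chromosome 1. They made up 36.1% of the compact regions of X but 5.1% of those of chromosome 19. The distance to the nearest protein-coding gene end ran from 50.03 to 1956 kb with a median of 126 kb, and 23 regions were over 1 Mb away. The gap between the flanking protein-coding genes had a median of 510 kb and exceeded 1 Mb for 202 regions. Widths ran from 10 to 1110 bp. The medians were 110 bp and 3 windows, as in each of the other 3 places. The 2 regions just inside the limit lay 50.03 kb from Camk2n1, at a deposited log2 fold change of 0.58, and 50.1 kb from Usp12, at 0.06. The 2 just outside lay 49.7 kb from Foxa2, at -0.13 in the deposited table, and 49.96 kb from Antxr2, at 0.01.

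Gene-poor did not mean free of annotated genes. The midpoint of 195 regions (23.2%) lay inside a non-coding gene, for 186 of them an lncRNA, and the median distance to the end of a non-coding gene was 20.6 kb. By the authors' deposited table, these 195 had a median log2 fold change of 0.05 (95% interval from order statistics 0.02 to 0.13) and the other 647 one of 0.11 (0.08 to 0.15). All 7 regions called below lay among the 647 (1.08%), and 0 of the 195 were called. The background was 0.831% of the 842 and 1.36% of all regions. With so few calls, this split is not read as a difference between the 195 and the 647. Within 10 kb of a microRNA hairpin lay 8 regions, a limit chosen after the values were known. Their deposited log2 fold changes ran from -0.64 to 0.60, with 7 positive and 1 negative, a median of 0.21 and no FDR below 0.265.

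Across the 842 regions the authors' deposited table leaned to positive values. The median log2 fold change was 0.10 (95% interval 0.06 to 0.14), the quartiles were -0.07 and 0.39, and the range was -1.46 to 1.22. Positive values were listed for 540 regions, or 64.1% (95% Wilson interval 60.8 to 67.3%), and negative ones for 302. csaw's own direction was up for 459, down for 213 and mixed for 170. The representative and the best window differed in sign in 117 regions. With best windows the median was 0.22 (95% interval 0.192 to 0.245), where it was 0.15 over all regions. Best-window medians in the other compact places were 0.22 from 1 to 50 kb, 0.20 within genes and -0.16 within 1 kb of a gene end. Over all 6758 regions the deposited median was 0.04 and 56.8% were positive. In the other compact places the medians were 0.11 from 1 to 50 kb, 0.09 within genes and -0.05 within 1 kb of a gene end, with 62.4%, 62.7% and 41.4% positive. The median and positive share of the gene-poor regions were thus near those of the intergenic and intragenic places and above those of the gene ends. No test over regions was made, since regions are not replicates. The intervals treat neighbouring regions as independent and leave out the spread between samples, so they cannot tell the places apart.

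**Figure D2:**
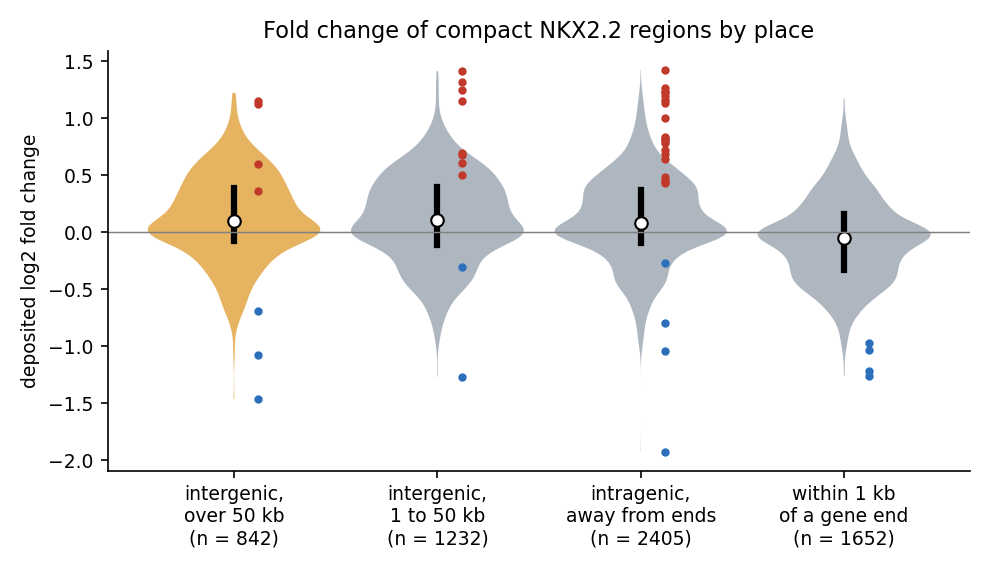
Distribution of the deposited log2 fold change (vertical axis) of compact regions in 4 places, with gene-poor regions in orange; white dots are medians, black bars span the quartiles, and red and blue dots are regions at an FDR of 0.05 or lower listed as up and down. The first 3 places have medians of 0.10, 0.11 and 0.09, and the gene ends -0.05.

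An FDR of 0.05 or lower, adjusted by the authors over the whole table, was reached by 7 of the 842 regions (0.831%), 4 listed as up and 3 as down. The background was 1.36% over all 6758 regions, 0.769% up and 0.592% down, and 0.734% over compact regions, 0.522% up and 0.212% down. The share in gene-poor DNA was thus near that of compact regions in general. Unadjusted p-values under 0.05 belonged to 90 regions (10.7%), 73 positive and 17 negative, where it was 11.2% of all regions (510 positive, 249 negative) and 9.88% of compact ones (433 positive, 173 negative). When the adjustment was repeated over compact regions alone, 3 of the 7 calls were left, those near Gm53057, Neil3 and Actbl2.

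The strongest region listed as up lay on chromosome 8 from 53781001 to 53781210, 142 kb from Neil3, which encodes a DNA glycosylase. Its deposited log2 fold change was 1.15, with 4 of 5 windows counted as up in csaw's tally (FDR 0.00277). The next, on chromosome 13 from 111099251 to 111099510, lay 156 kb from the actin-like gene Actbl2 and 699 kb from the polo-like kinase gene Plk2. It had a smaller deposited log2 fold change of 0.37, with 4 of 6 windows counted as up, at an FDR of 0.00428. Both regions held more windows than the median of 3.

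A region on chromosome 18 from 24362351 to 24362560 lay 75.6 kb from Galnt1, whose product starts mucin-type O-glycosylation. It was listed at a log2 fold change of 0.60 in the authors' deposited table, with 4 of 5 windows counted as up (FDR 0.0327). The fourth region listed as up, on chromosome 13 from 44673601 to 44673710, lay 57.1 kb from Jarid2, a cofactor of Polycomb repressive complex 2. All 3 of its windows were counted as up, and its deposited log2 fold change was 1.13. Its FDR of 0.04995 was just under the threshold, and its best-window FDR of 0.0619 was above it, the only one of the 7 for which this held.

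Of the regions listed as down, the strongest lay on chromosome 13 from 65631551 to 65631610, between the predicted genes Gm19428 and Gm53057 and 58.0 kb from the latter. Its deposited log2 fold change of -1.46 was the lowest of the 842, with both windows counted as down and an FDR of 0.00277. A region on chromosome 1 from 48881501 to 48881610 was also the one farthest from any protein-coding gene, 1956 kb from the zinc transporter gene Slc39a10 and 2019 kb from Tmeff2. It was listed at -1.08 in the authors' deposited table, with all 3 windows counted as down (FDR 0.0297). The last lay on chromosome 2 from 3964501 to 3964610, 53.1 kb from Frmd4a, a gene for a FERM-domain scaffold protein, at -0.69 in the deposited table (FDR 0.0361). No 2 of the 7 regions shared a gap, and the 3 listed as down held 2 or 3 windows each.

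**Figure D3:**
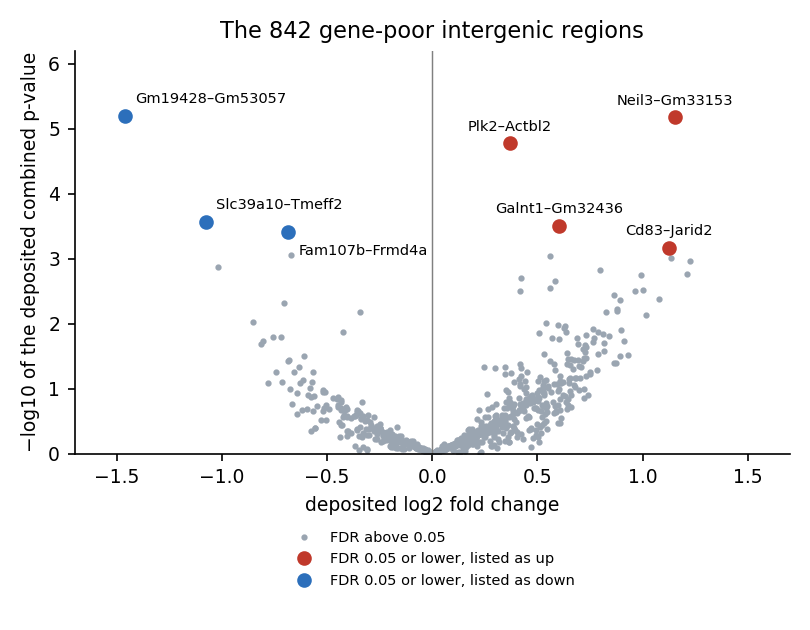
Deposited log2 fold change (horizontal axis) against −log10 of the deposited combined p-value (vertical axis) for the 842 regions; coloured points have an FDR of 0.05 or lower and carry the names of the flanking protein-coding genes. The 4 regions listed as up lie between 0.37 and 1.15, and the 3 listed as down between -1.46 and -0.69.

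A change of 1 or more in either direction on the log2 scale was listed for 11 regions, 8 positive and 3 negative, most of them without an FDR at the threshold. The highest value in the authors' deposited table, 1.22 (FDR 0.0661), was on chromosome 5 from 49887801 to 49887910, 72.1 kb from Adgra3, an adhesion G-protein-coupled receptor gene. It was followed by 1.21 (FDR 0.0837) on chromosome 1 from 194223201 to 194223260, 397 kb from the semaphorin receptor gene Plxna2. A single-window region on chromosome 8 from 6002751 to 6002760, 897 kb from the bile acid transporter gene Slc10a2, had a deposited value of 1.13 (FDR 0.0632). Among the lowest were also single windows on chromosome 4 from 64497901 to 64497910, 451 kb from the tenascin gene Tnc, at -1.02 (FDR 0.0722) in the deposited table, and on chromosome 17 from 13655151 to 13655160, 61.3 kb from Tcte2, at -0.85 (FDR 0.205). None of the 96 single-window regions reached an FDR of 0.05, where 0.831% of all 842 and 0.734% of compact regions did. At shares this low, the 0 of 96 is not read as a trait of single windows.

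Distance from genes did not order the values. Medians of the deposited log2 fold change were 0.12 in the 327 regions 50 to 100 kb from a gene end, 0.08 in the 251 from 100 to 200 kb, 0.10 in the 194 from 200 to 500 kb and 0.12 in the 70 farther away. Positive shares ran from 61.4 to 66.4% over these classes, and Spearman's rho with distance across the 842 regions was 0.01. The 4 other regions farthest from genes, at 1368 to 1550 kb, had deposited log2 fold changes of -0.01 near D3Ertd751e, -0.08 near G6pd2, -0.31 near Mrpl39 and 0.73 near the activin receptor gene Acvr2a, with FDR values of 0.337 or higher. By number of windows, the deposited medians were 0.12 for 1 window, then 0.06, 0.09, 0.14, 0.14 and 0.16 for 2 to 6 windows, so they rose from 2 windows on. Across the 842 regions Spearman's rho with the number of windows was 0.04. The deposited median was above 0 on each of the 20 chromosomes, from 0.01 on chromosome 6 to 0.28 on chromosome 3.

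**Figure D4:**
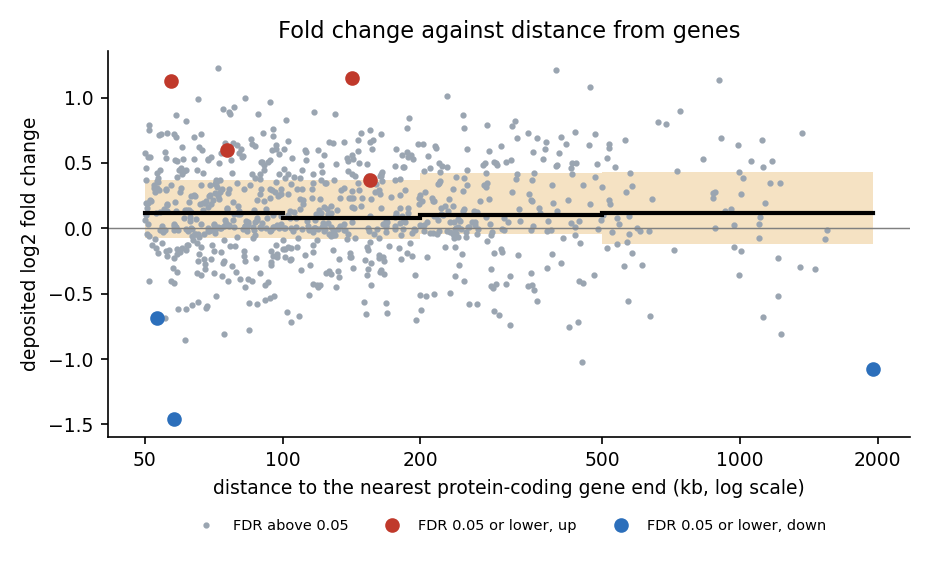
Deposited log2 fold change of each of the 842 regions against the distance of its midpoint to the nearest protein-coding gene end in kb (log scale); black lines are medians and orange bands quartiles of 4 distance classes, red and blue points are the 7 regions at an FDR of 0.05 or lower. The medians stay between 0.08 and 0.12 and the called regions lie from 53.1 to 1956 kb.

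The 842 regions fell into 490 gaps between protein-coding genes. One region was found in 301 gaps, 2 in 106 and 3 or more in 83. The gaps with 3 or more held 329 of the 842 regions. The median distance to the nearest listed region was 76.4 kb, against 40.7 kb in intergenic DNA nearer to genes. It was 48.7 kb within genes and 54.8 kb within 1 kb of a gene end. The fullest gap lay between Ubl3, a ubiquitin-like gene, and Katnal1, a gene for a katanin-like protein, on chromosome 5. Its 10 regions from 148616051 to 148800310 had deposited log2 fold changes of -0.59 to 0.36, with 5 positive and 5 negative. The gap between the co-repressor gene Irf2bp2 and Tomm20, a mitochondrial import receptor gene, on chromosome 8 held 9 regions at -0.35 to 0.65, 6 of them positive in the deposited table. One of these is the Gm45805 region printed above. In all, 3 gaps held 8 regions each, and the longest of them was taken. It lies on X, where the regions between the histone gene H2al1j and the BCL6 co-repressor gene Bcor had deposited values of -0.45 to 0.51, 4 positive and 4 negative. In the other two, 3 of 8 regions were positive between Klf14 and Mkln1 on chromosome 6, and 7 of 8 between Myo16 and Irs2 on chromosome 8, with deposited values of -0.39 to 0.56 and of -0.02 to 0.73. No region of these 5 gaps had an FDR below 0.242.

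Both signs occurred in 31 of the 36 gaps with 4 or more regions. All regions were positive in 4 gaps and all negative in 1, where 64.1% of the 842 regions were positive. Whether regions of a gap share a sign more often than this was not tested. These 5 gaps were singled out after their values had been seen. All 5 regions between Itga1 and Isl1 on chromosome 13 were positive in the authors' deposited table, at 0.01, 0.05, 0.41, 0.42 and 0.76. Isl1 encodes a LIM-homeodomain factor of islet cells, and the highest value belonged to the region nearest to it, 187 kb away on chromosome 13 from 116110751 to 116110810 (FDR 0.289). The other 3 positive gaps lay between Tpra1 and Plxna1, Eipr1 and Myt1l, and Cypt14 and Gria3. Their highest deposited values were 0.29, 0.29 and 0.49, and no FDR in them was below 0.836.

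The gap with negative values only lay on chromosome 12 between Adam6a and Zfp386 and was 2501 kb long. The gene table places 184 gene segments of the immunoglobulin heavy chain there, pseudogenes included. It does not class them as protein-coding, so the rule counted the locus as gene-poor. All 5 regions lay within the bounds of Igh. Deposited log2 fold changes were -0.81, -0.68, -0.72, -0.76 and -0.26, in order of position from 114773951 to 115641810. The first 4 had unadjusted p-values between 0.0158 and 0.0362 and the last 0.381, and the smallest FDR was 0.261, so none was called. The 4 further listed regions of the gap held 9 to 35 windows and were therefore not among the 842. They were negative too, making 9 of 9, and the lowest of them in the authors' deposited table was -1.23 (FDR 0.0625). The input libraries were not analysed here, so no value shows whether the input signal at this locus differs as well.

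**Figure D5:**
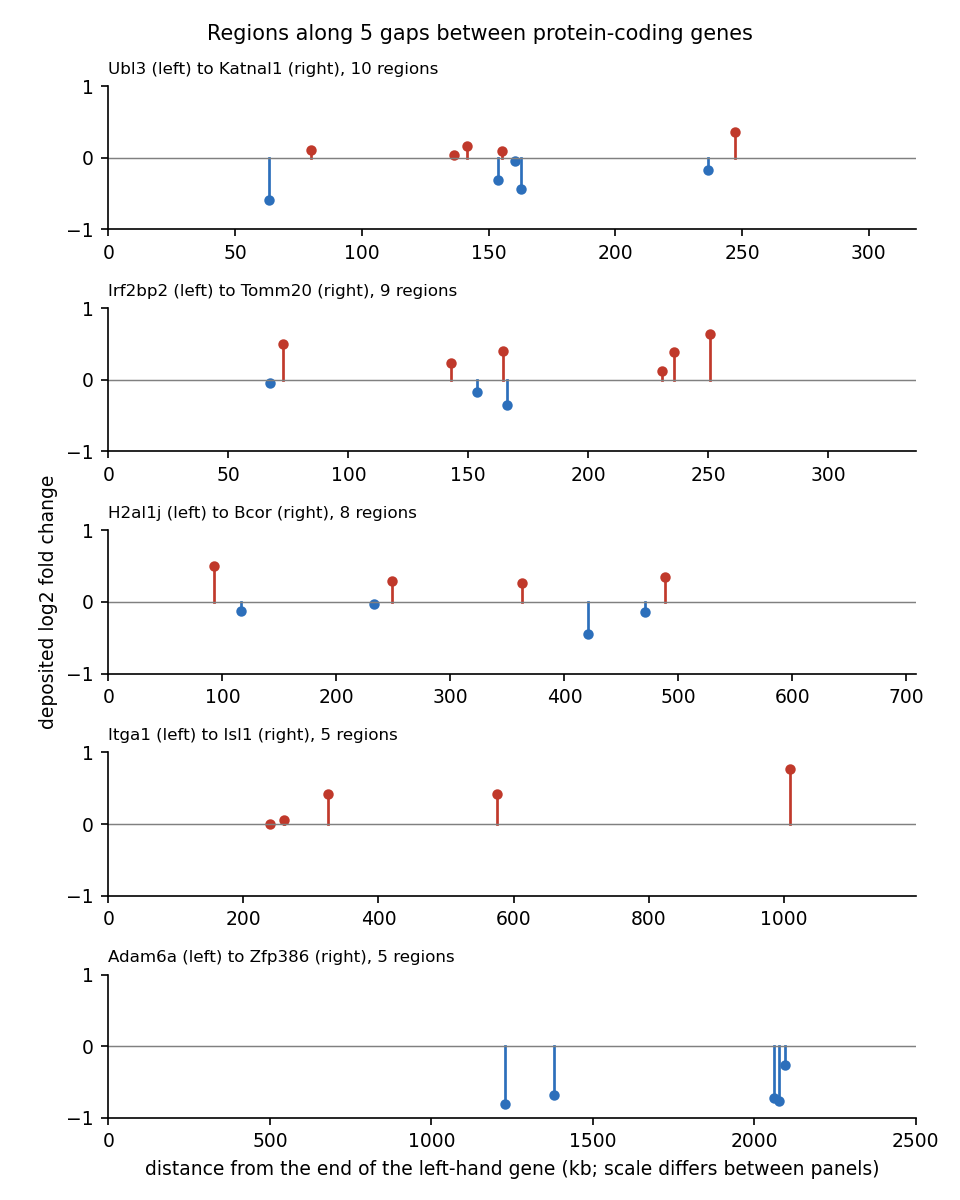
Deposited log2 fold change (vertical axis) of the regions along 5 gaps between protein-coding genes, plotted by distance from the end of the left-hand gene in kb. The upper 3 gaps hold 10, 9 and 8 regions (2 more gaps with 8 are not shown) and both signs, the Itga1 to Isl1 gap only positive values (0.01 to 0.76) and the Adam6a to Zfp386 gap, which is the Igh locus, only negative ones (-0.81 to -0.26).

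Genes bordering these regions were read from 3 lists. Of 17 islet and alpha-cell genes, 6 were the nearest gene of 16 regions, 9 positive and 7 negative, with a median of 0.04 in the deposited table against 0.10 for all 842. No region of the list was called (background 1.36%), and 3 of the 16 (background 11.2%) had an unadjusted p-value under 0.05. The 3 regions near Pcsk2, which encodes the prohormone convertase that releases glucagon, lay 121 to 146 kb away and were all positive, at 0.35, 0.66 and 0.48 in the deposited table (smallest FDR 0.382). Near Foxa2, a forkhead factor of endoderm and islets, the 5 regions had deposited values of -0.25, 0.22, 0.00, -0.61 and 0.20, and the lowest of these (FDR 0.365) lay inside the lncRNA gene 9030622O22Rik. The 4 regions whose nearest gene is Klf4 itself, 171 to 406 kb away, were at -0.13, -0.40, -0.20 and 0.70 in the deposited table, with FDR values of 0.514 or higher. Near Irx1 and Irx2, homeodomain factor genes, the 3 regions had deposited values of 0.08, -0.18 and -0.16 (each with an FDR of 1.0).

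Of 40 developmental transcription factor genes, 9 were nearest to 15 regions, of which 9 were positive. No unadjusted p-value was under 0.05 (0 of 15, background 11.2%), and none was called (background 1.36%). The median in the deposited table was 0.05. Among the genes with most regions were Irx3 with 3 (-0.04, 0.24 and -0.11), Foxp1 with 2 (-0.02 and 0.67), Prox1 with 2 (0.04 and 0.11) and Tshz3 with 2 (0.30 and 0.34), all as deposited log2 fold changes. One of the Irx3 regions overlaps the promoter window of the lncRNA gene Gm36670.

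Of 52 adhesion and synapse genes, 11 were nearest to 16 regions, 9 positive and 7 negative, with a median of 0.03 in the deposited table. None was called (background 1.36%), and 2 of the 16 had an unadjusted p-value under 0.05 (background 11.2%). The highest deposited value was 0.69, near Cdh19 (FDR 0.295), named after its value was seen. Epha7, an Eph receptor gene, was nearest to 4 of the 16. The deposited value of the region 636 kb from it, inside the lncRNA gene Gm52725 on chromosome 4 from 28176901 to 28177060, was -0.67 with all 4 windows counted as down (FDR 0.0604), while the other 3, at 73.0 to 148 kb, were at 0.28, -0.07 and 0.17. Near Cdh6 the 2 regions were at 0.03 and 0.35 and near Pcdh17 at 0.30 and -0.14 in the deposited table. One region each lay nearest to Cdh11 (-0.01) and Cdh8 (0.52). Counting every region of a gap that a listed gene borders, 15 of 22 regions were positive for the islet list, 18 of 30 for the developmental factors and 17 of 30 for the adhesion genes, beside 64.1% of all 842. None of these was called either, where 1.36% of all regions were.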

How the data were processed

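NKX2.2 ChIP-seq of 4 scramble and 3 Klf4-KD samples was read from 1 table of the authors' csaw comparison. Per the submitters' processing notes, FastQC, Bowtie2, MACS2 and build mm10 were used; the window filter, normalization and test covariates are not given in the sources used here. The authors deposited log2 fold changes of a representative window, and p-values with FDR values combined over the windows of a region. Their FDR equals a Benjamini-Hochberg adjustment over all 6758 regions.

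Midpoints were placed against 21883 protein-coding genes of RefSeq GRCm38.p6, the same assembly as mm10, by the distance to the nearer gene end, since the gene table gives no strand. Computed were counts, medians with 95% order-statistic intervals, Wilson intervals, bases per place and letter matches in promoter windows. A region was called at an FDR of 0.05 or lower. Placement was tested on simulated data. Python 3.11.15, numpy 2.4.6, pandas 2.3.3 and scipy 1.17.1 were used.

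The members, gene lists and tests were chosen with earlier results of these data known. Named were all called regions, the 5 highest, 5 lowest and 5 farthest, the 3 fullest gaps (of 3 tied at 8 regions, the longest), the islet list, the 5 leading genes of the other lists (1 is not reported here) and the 2 regions on either side of the distance limit. The planned printing and motif search of called regions needed a genome and was not run. Depth is unknown, so no precision per region can be given.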

Additional observations from a re-analysis of the deposited data

How the results depend on the processing

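No paired analysis was possible because no column belongs to a sample. For the same reason leaving out replicates, DESeq2, another normalization and a low-count filter were not run, and motif shares in shorter sequence were not run without a genome. The 7 called regions (4 up, 3 down) became 3 (2 and 1) at an FDR of 0.01 and 17 (12 and 5) at 0.1. They became 3 (2 up, 1 down) when adjusted over compact regions, when the distance limit was 100 kb (515 regions), and when all annotated genes counted (204 regions). The best-window FDR gave 6 (3 and 3), all among the 7. The count was 7 (4 and 3) with a 25 kb limit, without single-window regions and without the Igh gap. The median log2 fold change, 0.10, moved to 0.22 with the best window and to 0.16 with all annotated genes. It stayed between 0.09 and 0.12 in its other 6 alternatives, among them leaving out the Igh gap and 1 value per gap, both chosen after seeing the data. The share of positive values stayed between 62.7 and 65.0% in its 4 alternatives. Beyond the fewer regions kept or the other threshold, the cause was not tested. Because the depth is unknown, the size of change that a region not called could hide is unknown too.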
